A study of Homo sapiens with 12 samples.

Results

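The immediate early and short-lived transcripts followed here are 45 genes, chosen by symbol for encoding mRNAs of brief lifetime that cells switch on within minutes of a signal. They make up 45 of the 26475 gene symbols in the expression table, and all 45 passed the filter on low counts, which left 14582 genes. RNA was sequenced from MIAPaCa2, an established human pancreatic ductal adenocarcinoma (PDAC) cell line, and from MIAPaCa2 cells selected for resistance to oxamate, a pyruvate analog that inhibits lactate dehydrogenase A (LDHA). Each line was left without inhibitor or treated with oxamate, giving 4 groups of 3 libraries: vehicle-treated parental, oxamate-treated parental, vehicle-treated resistant and oxamate-treated resistant cells. The sample labels call the groups without inhibitor untreated. The resistant cells were a polyclonal population that outgrew continuous oxamate culture. After that selection, how long each line was treated before RNA extraction is not given in the sources used here. Nor is the time that vehicle-treated resistant cells had spent without oxamate. With 1 parental and 1 resistant population, resistance and any other difference between these populations cannot be told apart. Nothing in the labels says that the 3 replicates of a group came from separate cultures, so p-values measure only the spread between these libraries, which may be technical.

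Immediate early genes are transcribed without new protein synthesis when growth factors, serum or stress activate kinases such as ERK, p38 and PKA, which act on factors already bound to the promoter, among them SRF with its ternary complex partners and CREB. Many of their products are transcription factors: the FOS and JUN proteins pair into AP-1, and the EGR, NR4A and KLF families bind their own sites. Others close the loop, as the DUSP phosphatases remove phosphate from MAP kinases and ZFP36 proteins bind AU-rich elements in 3′ untranslated regions and recruit the machinery that removes the poly(A) tail. Because the mRNAs decay fast, their steady level follows the current rate of transcription and decay closely. In pancreatic cancer cells, signalling through ERK is a standing input to many of these promoters.

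Expected counts summed to between 46698729 and 114222169 per library, and levels are in CPM, each gene's count after all libraries were brought to one depth with TMM factors, with a floor of 3 counts at 0.0283 to 0.0581 CPM. Floors cover counting error only. Of the genes listed as epithelial and carcinoma markers, KRT8, KRT18, KRT19, VIM and EPCAM summed to 7736 to 13780 CPM. EPCAM itself had at most 3 counts in any library, and VIM is not restricted to carcinoma cells. Of the markers of other cells, PTPRC, CD3E, LUM and DCN had at most 3 counts, and PECAM1 at most 11. COL3A1, of the fibroblast list, was at 30.4 to 37.2 CPM in parental and 13.5 to 14.3 CPM in resistant libraries. The leukocyte list summed to 156 to 220 CPM in parental and 56.4 to 63.0 CPM in resistant libraries, nearly all of it CD68, a lysosomal protein that is not restricted to macrophages. The third oxamate-treated parental and the third vehicle-treated resistant libraries stood apart in nuclear-retained RNA: MALAT1 was at 596 CPM in the former against 289 and 281 CPM in its group, and at 597 CPM in the latter against 273 and 244 CPM. Vehicle-treated parental libraries held 183 to 199 CPM of MALAT1 and oxamate-treated resistant libraries 577 to 742 CPM. Where leaving out both libraries that stood apart changed whether a member passed, both values are given.

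Most members are compact genes. In GENCODE release 29 (GRCh38) their transcripts had a median of 3 exons against 9 over the 12679 tested genes with an annotated transcript, and 8 of the 45 had a single exon. The few-exon structure is part of how the list was drawn up. So is a brief mRNA lifetime, on which AU-rich elements of the 3′ untranslated region bear. The share of members with such an element is thus not independent of that choice. The AU-rich nonamer TTATTTATT, read on the transcribed strand, was found in the 3′ untranslated region of 12 members (26.7%) against 8.74% of all tested genes, at 0.23 against 0.0661 copies per kb. The core ATTTA, which the nonamer contains, was at 2.32 copies per kb in the members and 2.23 in all tested genes. Sites from 6 members, shown because these genes carry the AU-rich element that ZFP36 proteins bind, are printed in the sense direction with the nonamer in capitals. ZFP36 itself, the decay factor, is among them.
ZFP36, chr19:39409197-39409223, plus strand: atgacgactTTATTTATTctaatatga
ZFP36L1, chr14:68788078-68788104, minus strand: actgttggaTTATTTATTttagaaatt
MAFF, chr22:38215915-38215941, plus strand: ccccactgtTTATTTATTgcacggatc
MAFK, chr7:1542852-1542878, plus strand: tccatttcaTTATTTATTttttgtgct
DUSP1, chr5:172768644-172768670, minus strand: ggctggtccTTATTTATTtaacttcac
FOS, chr14:75282061-75282087, plus strand: gtttttaatTTATTTATTaagatggat

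Promoters of 35 of the 45 members were matched in RefSeq (GRCh38.p14), and motifs were searched on both strands from 250 bases before to 50 bases after the start site. The cAMP response element TGACGTCA was present in 4 of 35 member promoters (11.4%), those of DUSP1, DUSP8, JUND and MAFF, against 3.18% of the promoters of tested genes and 1.85% of all 35116 promoters. TATAAA was present in 10 of 35 (28.6%) against 5.22% and 11.5%. The CArG box, the SRF site, was found at 2 places in the EGR1 promoter and in no other matched promoter, against 1.04% and 1.29%. Sites outside this window, and promoters of members that were not matched, were not searched. For EGR2 and NR4A1, among others, the matched start site lay upstream of that of the transcript used above. GGAATG, the core of the TEAD site, was found in 4 of 35 (11.4%) against 10.8% and 14%, so the members as a group matched the background, but the CTGF promoter held 3 copies. TGANTCA, the AP-1 site, was in 1 of 35 (2.86%) against 4.49% and 7.71%, and the EGR site GCGTGGGCG was in 0 of 35 against 1.31% and 0.795%. The 250 bases before the start site of 3 genes, each with a different motif, are printed in the direction of transcription, with the cAMP response element (DUSP1), the CArG boxes (EGR1) or the GGAATG copies (CTGF) in capitals.
DUSP1, chr5:172771196-172771445, minus strand: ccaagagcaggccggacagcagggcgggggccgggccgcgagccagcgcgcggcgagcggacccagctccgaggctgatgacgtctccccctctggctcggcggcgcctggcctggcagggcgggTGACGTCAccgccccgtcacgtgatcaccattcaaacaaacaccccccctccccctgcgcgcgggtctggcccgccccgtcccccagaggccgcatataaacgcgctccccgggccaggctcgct
EGR1, chr5:138465229-138465478, plus strand: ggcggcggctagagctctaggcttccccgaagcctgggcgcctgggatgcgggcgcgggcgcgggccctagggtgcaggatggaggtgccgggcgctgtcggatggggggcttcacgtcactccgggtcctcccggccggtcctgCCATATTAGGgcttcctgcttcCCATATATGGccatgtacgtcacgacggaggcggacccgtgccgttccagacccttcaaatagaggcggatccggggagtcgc
CTGF, chr6:131951373-131951622, minus strand: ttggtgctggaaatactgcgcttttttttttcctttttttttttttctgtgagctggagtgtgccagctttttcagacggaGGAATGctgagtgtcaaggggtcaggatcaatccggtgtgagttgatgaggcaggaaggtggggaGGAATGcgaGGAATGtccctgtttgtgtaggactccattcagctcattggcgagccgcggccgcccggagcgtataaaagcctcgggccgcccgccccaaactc

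**Figure D1:**
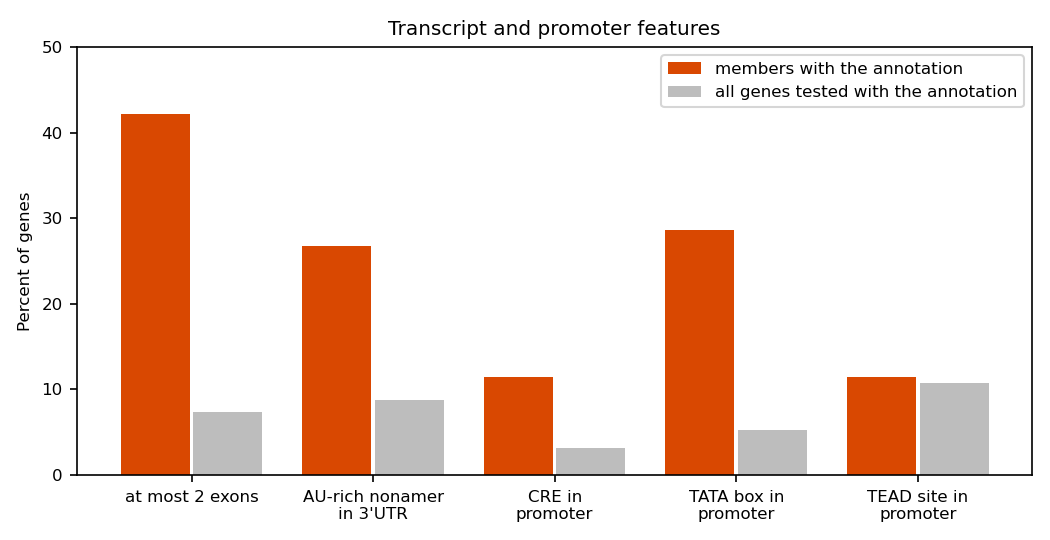
Percent of genes with each feature, for the members with the annotation (orange; 45 for transcript features, 35 for promoters) and for all tested genes with the annotation (grey). The AU-rich nonamer stood at 26.7% against 8.74% and the TATA box at 28.6% against 5.22%, while the TEAD site was at 11.4% against 10.8%.

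The members spanned a wide range of levels. Per kb of spliced transcript, JUN, the AP-1 subunit, was highest in vehicle-treated parental cells at 220.4 CPM per kb, followed by JUNB at 174 and ZFP36L1 at 144 CPM per kb. EGR2, DUSP4 and CTGF were lowest at 0.141, 0.237 and 0.310 CPM per kb. Summed over the 45 genes, the members took 5923 to 6138 CPM in vehicle-treated parental, 6189 to 6434 in oxamate-treated parental, 5079.6 to 5293 in vehicle-treated resistant and 4606 to 4706 in oxamate-treated resistant libraries. The 4 groups did not overlap in this sum, which was highest in oxamate-treated parental cells and lowest in oxamate-treated resistant cells. This order depended on scaling, as the TMM factors were 0.8783 to 0.9369 in parental and 1.078 to 1.117 in resistant libraries. With library size alone, only the oxamate-treated resistant libraries stay apart, as the lowest, and the other groups overlap. In bulk RNA, fewer cells with a transcript and less of it per cell cannot be told apart.

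**Figure D2:**
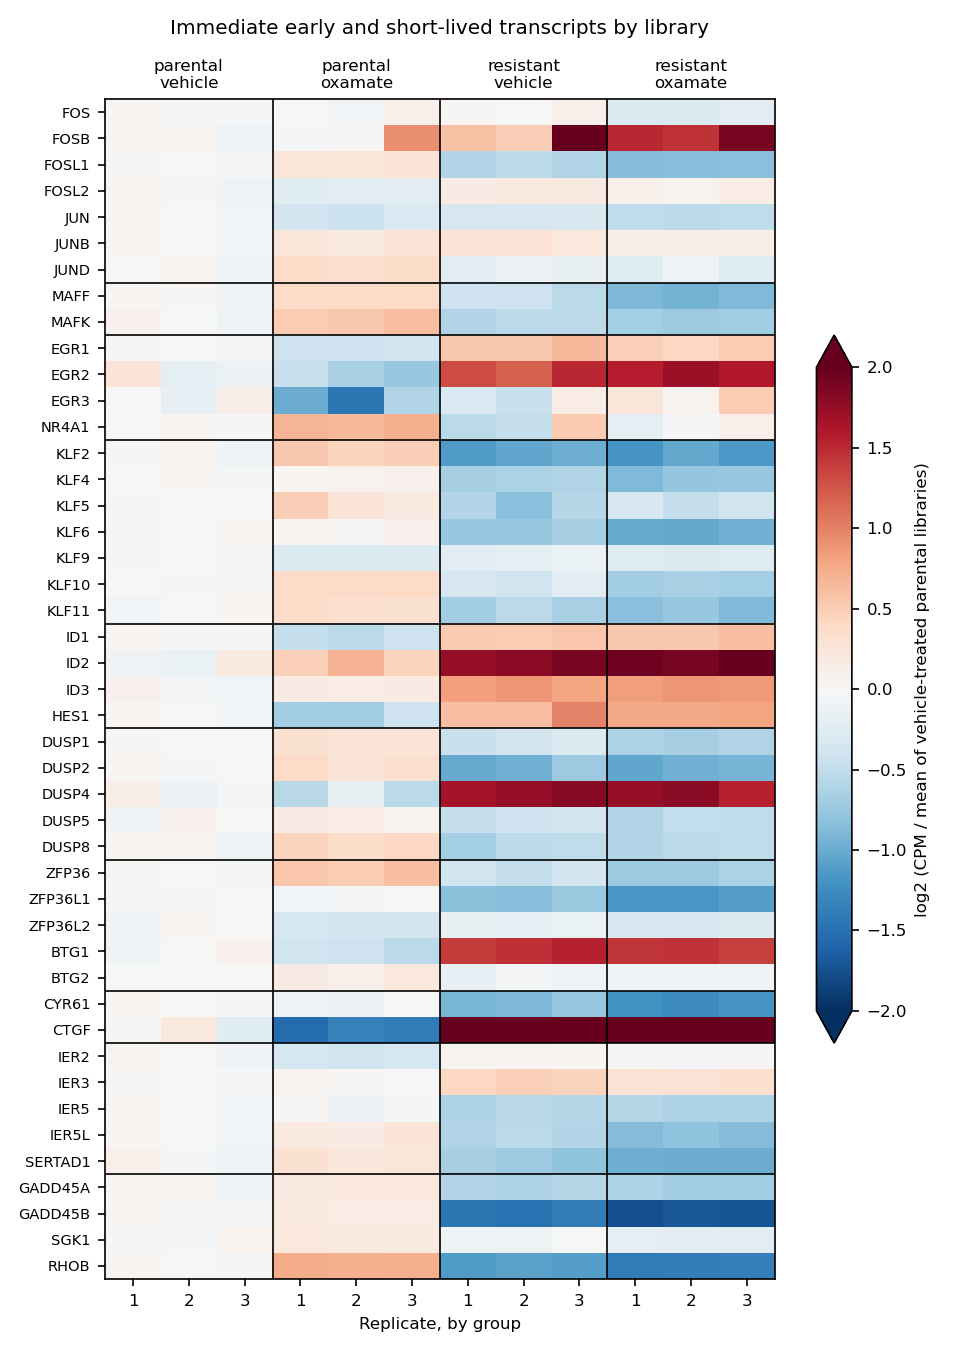
Level of each of the 45 members (rows, grouped by role) in each of the 12 libraries (columns), as log2 of CPM over the mean of the 3 vehicle-treated parental libraries, with the colour scale limited at -2 and 2. Of the 45 rows, 29 are above the vehicle-treated level in oxamate-treated parental cells and 30 below it in vehicle-treated resistant cells, with CTGF, ID2, DUSP4, BTG1 and EGR2 the other way in resistant cells.

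The first comparison asked what oxamate did to these transcripts in parental MIAPaCa2 cells. The response was broad, small in size and mixed in direction: 24 of the 45 members rose and 13 fell at an adjusted p under 0.05 (quasi-likelihood test of edgeR, Benjamini-Hochberg over all 14582 genes, as for every adjusted p here), against 28.3% of all tested genes that rose and 30.4% that fell. The median log2 fold change of the members was 0.16, and that of all tested genes 0.00296. With a fold change over 1.5 required as well, 2 members rose (5.32% of all genes) and 4 fell (4.06%). Small MAF proteins, KLF factors, MAP kinase phosphatases and stress proteins mostly rose, and EGR factors, CTGF and HES1 fell.

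RHOB, a small GTPase of the endosome and actin cytoskeleton that is itself an immediate early gene, moved furthest upward. Its level was 305, 292 and 287 CPM in the vehicle-treated and 493, 480 and 490 CPM in the oxamate-treated parental libraries. The groups did not overlap, and the log2 fold change was 0.73 (SE 0.03, adjusted p = 1.72e-11). NR4A1, an orphan nuclear receptor induced by many stimuli, went from 6.60, 6.91 and 6.50 to 10.7, 10.4 and 10.9 CPM (log2 fold change 0.68, SE 0.18, adjusted p = 0.00408). Both were higher in 3 of 3 oxamate-treated libraries than in any vehicle-treated library, as were 4314 of all 14582 tested genes.

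ZFP36, which destabilizes AU-rich mRNAs including its own, rose from 87.1, 85.1 and 83.9 to 126, 121 and 130.2 CPM (log2 fold change 0.56, SE 0.03, adjusted p = 2.51e-09). Its paralogs did not follow: ZFP36L2 fell (-0.36, SE 0.03), and ZFP36L1, the most abundant of the decay and BTG group at 461 ± 8.41 CPM (SD, n = 3), was at 452 ± 8.65 CPM after oxamate (adjusted p = 0.452). Both small MAF genes rose, MAFK by 0.56 (SE 0.04) and MAFF by 0.38 (SE 0.03) on the log2 scale. Small MAF proteins lack an activation domain and pair with NRF and BACH proteins. MAFF was tight among replicates, at 93.6, 92.2 and 87.0 CPM before and 119, 119 and 119 CPM after oxamate.

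Among 7 KLF factors, 4 rose and 1 fell. KLF2, a zinc-finger factor best known from endothelium and T cells, rose from 218, 224 and 203 to 311, 291 and 303 CPM (log2 fold change 0.49, SE 0.05), and KLF10 and KLF11, both known as TGF-beta-inducible, rose by 0.39 (SE 0.04) and 0.34 (SE 0.04). KLF9, a glucocorticoid-responsive member, fell (-0.28, SE 0.03). KLF6, the most abundant at 534 ± 12.0 CPM, was at 553 ± 13.5 CPM (SD, n = 3 each) after oxamate, with an adjusted p of 0.156. Of the 5 MAP kinase phosphatases, DUSP1, DUSP2, DUSP5 and DUSP8 rose, by 0.27, 0.32, 0.12 and 0.41 on the log2 scale, while DUSP4, a nuclear phosphatase induced by ERK, fell (-0.42, SE 0.14, adjusted p = 0.0142), a call lost without the libraries rich in nuclear RNA (-0.35, SE 0.16, adjusted p = 0.0748). DUSP1, the most abundant of them, went from 144, 139.7 and 139.6 to 174, 169 and 169 CPM. GADD45A, GADD45B and SGK1 rose by 0.16 to 0.19, so all 4 members of the stress and signalling group, RHOB included, rose.

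AP-1 subunits split. FOSL1, JUNB and JUND rose (log2 fold changes 0.25, 0.24 and 0.36), JUN and FOSL2 fell (-0.37 and -0.23), and FOS and FOSB did not pass (adjusted p = 0.664 and 0.361). JUN was at 814, 775 and 752 CPM under vehicle and 598, 579 and 629 CPM under oxamate, while FOS, which needs a JUN partner to bind DNA, was at 169.5 ± 4.13 and 172 ± 9.00 CPM (SD, n = 3 each). EGR1, EGR2 and EGR3, zinc-finger factors downstream of ERK and SRF, all fell. EGR1, the abundant member, was at 313, 309 and 300.3 CPM under vehicle and 232, 231 and 234 CPM under oxamate, with no overlap (log2 fold change -0.41, SE 0.03, adjusted p = 2.68e-08). EGR3 fell from 3.99, 3.52 and 4.34 to 1.99, 1.45 and 2.61 CPM (-0.94, SE 0.18, adjusted p = 0.00033). EGR2, at 0.417 ± 0.0724 and 0.272 ± 0.0293 CPM (SD, n = 3 each), had a log2 fold change of -0.63 (adjusted p = 0.0168). The EGR2 call was lost without the first vehicle-treated replicate (-0.46, adjusted p = 0.146), without the third oxamate-treated replicate (adjusted p = 0.0781), without both libraries rich in nuclear RNA (-0.56, adjusted p = 0.0789) and with DESeq2 (adjusted p = 0.0753).

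Inhibitors of basic helix-loop-helix factors moved both ways. ID1 fell from 151, 146 and 145 to 105, 101 and 110 CPM (log2 fold change -0.48, SE 0.03), and HES1, the Notch-responsive repressor, fell from 20.0, 19.6 and 18.7 to 11.9, 12.0 and 14.5 CPM (-0.59, SE 0.09, adjusted p = 5.42e-05). ID2 and ID3 rose by 0.56 and 0.15. The largest decrease of all members was in CTGF, a secreted matricellular protein and a standard readout of YAP and TGF-beta signalling: 0.736, 0.832 and 0.611 CPM became 0.250, 0.286 and 0.275 CPM (-1.44, SE 0.22, adjusted p = 4.26e-05). These levels are low but above the floor in every library. CYR61, its close relative, was at 111 ± 2.78 and 106 ± 4.11 CPM (SD, n = 3 each; adjusted p = 0.118). Without the third oxamate-treated replicate, which was rich in nuclear RNA, CYR61 fell (-0.10, adjusted p = 0.0252). BTG1, an antiproliferative protein that binds the deadenylase CAF1, fell (-0.45), BTG2 rose (0.16), IER2 fell (-0.37), IER5L and SERTAD1 rose (0.20 and 0.25), and IER3 and IER5 did not pass.

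The second comparison asked the same of cells already selected for resistance. The direction was one-sided: 23 of the 45 members fell, against 12.5% of all tested genes, and 0 rose, against 9.01%. At an unadjusted p under 0.05, 2 members were higher and 25 lower, and DESeq2 and limma-voom each gave 1 that rose. The changes were small, from -0.45 to -0.09 on the log2 scale among the 23, and none passed a fold change of 1.5 (1.16% of all genes rose and 0.158% fell past it). The median log2 fold change was -0.10, and that of all tested genes -2.06e-05.

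MAFF fell furthest, from 67.9, 68.3 and 62.6 to 48.9, 47.3 and 49.3 CPM (log2 fold change -0.45, SE 0.04, adjusted p = 7.96e-07). KLF10 followed at -0.36 (SE 0.04), CYR61 at -0.36 (SE 0.04), ZFP36L1 at -0.34 (SE 0.03) and FOS at -0.30 (SE 0.04). FOS was at 172, 169 and 181 CPM under vehicle and 139, 139 and 146 CPM under oxamate. Its groups were apart, as for 3261 of all 14582 tested genes on the lower side. RHOB, the member that rose most in parental cells, fell here from 135, 140.2 and 137 to 112, 113 and 114 CPM (-0.28, SE 0.03, adjusted p = 4.81e-06). ZFP36 likewise fell, from 64.4, 61.3 and 66.0 to 51.6, 51.7 and 54.9 CPM (-0.28, SE 0.04).

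By role, both small MAF genes fell, as did 5 of 7 KLF factors, 4 of 7 AP-1 subunits, 3 of 5 genes in the decay and BTG group, 3 of 5 in the IER and SERTAD1 group and 3 of 4 stress and signalling genes. Only 1 of 5 phosphatases, DUSP1, fell (-0.27). None of the 4 ID and HES1 genes passed, with log2 fold changes from 0.02 to 0.12. EGR1 was at 459 ± 18.4 and 427 ± 13.9 CPM (SD, n = 3 each; -0.10, adjusted p = 0.0259), a call lost under 6 alternatives, among them the fit without the third vehicle-treated replicate (adjusted p = 0.0901). The MAFK call (-0.16, adjusted p = 0.0228) was lost without any of 4 of the 6 replicates, at adjusted p between 0.0534 and 0.0813.

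Some members gave other values when the libraries rich in nuclear RNA were left out. FOSB, an AP-1 subunit, was at 16.1, 15.03 and 44.3 CPM in vehicle-treated resistant libraries and 30.6, 29.2 and 40.2 CPM in oxamate-treated ones. The third vehicle-treated library was the highest of all 6, and with all libraries the log2 fold change of FOSB was 0.41 (SE 0.31, adjusted p = 0.372). In the fit without either library rich in nuclear RNA, it was 1.10 (SE 0.10, adjusted p = 5.06e-07). EGR3 went from 0.47 (adjusted p = 0.0631) to 0.66 (SE 0.13, adjusted p = 0.00131) and NR4A1 from 0.05 (adjusted p = 0.887) to 0.48 (SE 0.08, adjusted p = 0.000373) in the same fit. The NR4A1 level was 4.57 and 4.77 CPM in the first vehicle-treated resistant libraries but 9.62 CPM in the third. In that fit 4 members rose, the other being HES1 (0.16, SE 0.04, adjusted p = 0.00517), and 21 fell, and FOSB and EGR3 passed a fold of 1.5. In parental cells, too, the oxamate-treated library with the most MALAT1 had the most FOSB, 20.3 against 10.4 and 10.9 CPM. Leaving out the third vehicle-treated resistant library set vehicle-treated libraries with MALAT1 at 273 and 244 CPM against oxamate-treated ones at 577 to 742 CPM. The resistant groups were thus less even in nuclear RNA in that fit than with all libraries. The part of nuclear RNA in these values was not tested.

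**Figure D3:**
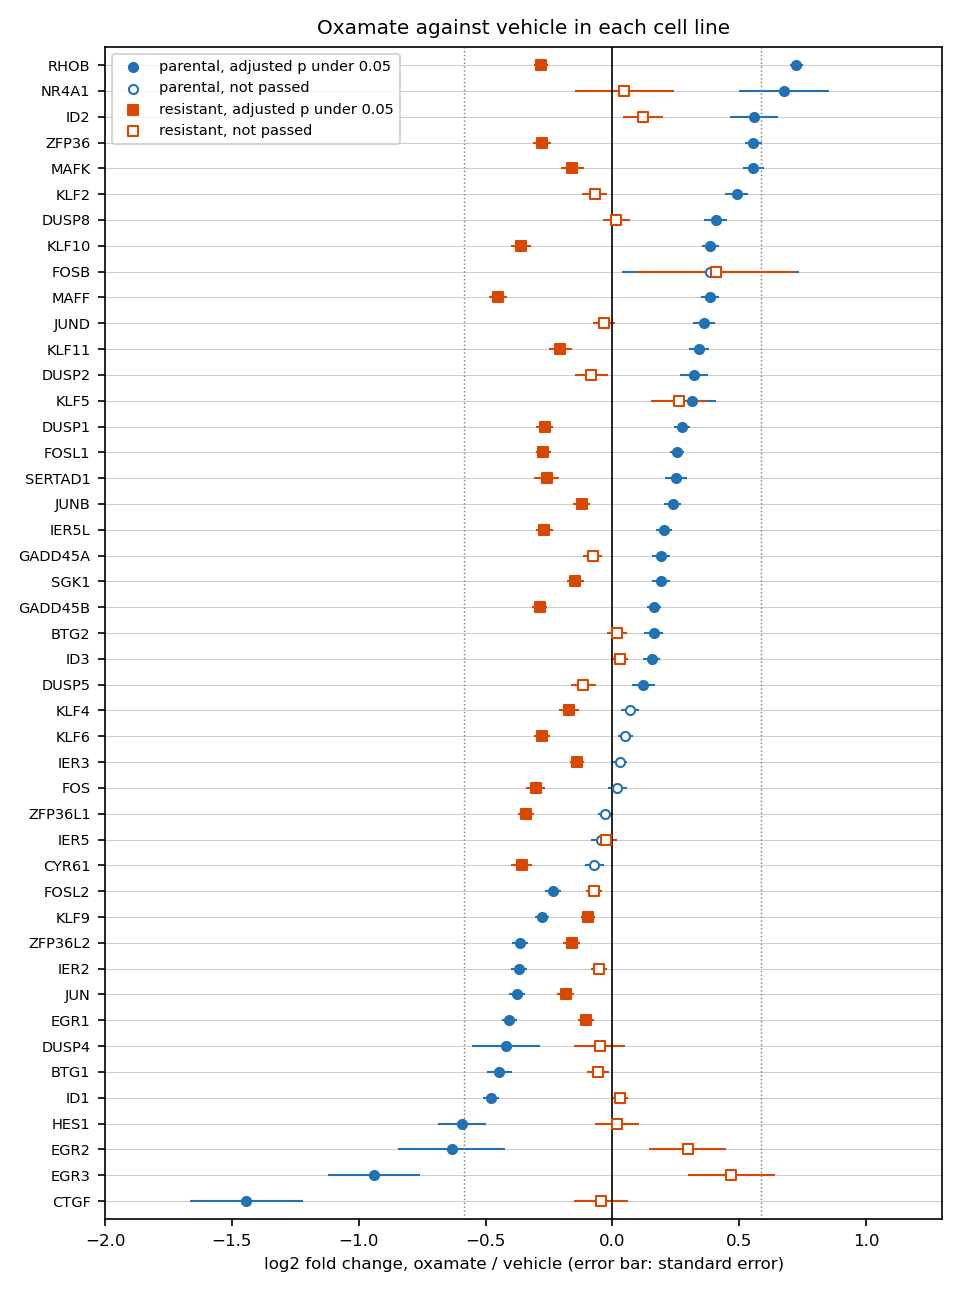
Log2 fold change of each member on oxamate in parental (blue circles) and resistant (orange squares) cells, with standard errors, filled where the adjusted p was under 0.05, and dotted lines at a fold of 1.5. Filled blue points lie on both sides of 0, from RHOB at 0.73 to CTGF at -1.44, whereas every filled orange point lies below 0.

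Set side by side, 13 members rose in parental cells and fell in resistant cells: FOSL1, JUNB, MAFF, MAFK, KLF10, KLF11, DUSP1, ZFP36, IER5L, SERTAD1, GADD45B, SGK1 and RHOB. They were 28.9% of the members, against 3.13% of all tested genes with that pattern, and the comparisons share no library. The members were chosen with earlier results of these data known, so their share is not independent of these data. Another 11 (24.4%, against 21.2% of all genes) rose in parental cells only by the threshold, and 9 (20.0% against 22.4%) fell in parental cells only. Both shares were near those of all genes. In resistant cells only, 6 fell (13.3% against 3.76%), and JUN, EGR1, KLF9 and ZFP36L2 fell in both lines (8.89% against 5.62%). FOSB and IER5 passed in neither (4.44% against 34.9%). No member rose in both, against 3.98% of all genes. These counts rest in part on the libraries rich in nuclear RNA: without them KLF9 (-0.08, adjusted p = 0.0696) and EGR1 (-0.07, adjusted p = 0.0591) did not pass in resistant cells, and NR4A1 rose in both lines (0.66, adjusted p = 2.91e-07, in parental cells).

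The difference between the responses was tested in the same model as the resistant minus the parental log2 fold change. It was negative for 28 members and positive for 12 at an adjusted p under 0.05, against 21.4% and 22.7% of all tested genes, with a median of -0.29. All 13 genes with opposite directions passed with a negative difference. Their sign was fixed by how they were picked, from the same libraries, so it adds no support. The difference for BTG2 (-0.14, adjusted p = 0.0413) was lost without the libraries rich in nuclear RNA (-0.10, adjusted p = 0.159). With a difference over 1.5-fold as well, 5 members were lower (2.53% of all genes) and 4 higher (4.99%). RHOB had the smallest p, with a difference of -1.01 (SE 0.04, adjusted p = 5.73e-11), followed by MAFF (-0.84, SE 0.05), ZFP36 (-0.83, SE 0.05), KLF10 (-0.75, SE 0.05) and MAFK (-0.71, SE 0.06). The higher ones were genes that, with all libraries, fell with oxamate in parental cells and did not pass in resistant cells: EGR3 (1.41, SE 0.25), CTGF (1.40, SE 0.25), EGR2 (0.93, SE 0.26) and HES1 (0.61, SE 0.13). For FOSB the difference was 0.02 (adjusted p = 0.975) with all libraries and 1.13 (SE 0.15, adjusted p = 9.82e-06) without the pair rich in nuclear RNA. Of the most abundant genes of the other roles, ID1 (0.51), EGR1 (0.30), IER2 (0.32) and JUN (0.19) differed upward, and DUSP1 (-0.54), SGK1 (-0.34), KLF6 (-0.33), ZFP36L1 (-0.31) and CYR61 (-0.29) downward.

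The third comparison set resistant against parental cells under vehicle, to ask which members differed between the lines without the inhibitor. Here 27 of 45 members were lower and 13 higher in resistant cells, against 37.3% and 38.4% of all tested genes, and the median log2 fold change was -0.31 against 0.03. Past a fold of 1.5, 12 were lower (6.09% of all genes) and 8 higher (17.0%). The split depended on scaling: with library size alone, which raised the median of all genes to 0.24, 5 members were lower and 11 higher past that fold, and with upper-quartile factors 8 and 10. At an adjusted p alone, library size gave 23 lower and 17 higher.

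All 7 KLF factors were lower in vehicle-treated resistant cells, 5 of them past 1.5-fold. KLF2 was at 97.7, 105 and 109 CPM, less than in any vehicle-treated parental library (log2 fold change -1.05, SE 0.05, adjusted p = 1.16e-11). KLF6 was at 317, 315 and 337 CPM against 525, 529 and 548 CPM in parental cells (-0.72, SE 0.03). KLF4 and KLF5, epithelial factors, were at -0.64 and -0.66, and KLF11 at -0.62. The remaining pair, KLF9 and KLF10, were at -0.17 and -0.31, and with library size alone KLF9 turned to 0.05.

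All 4 ID and HES1 genes were higher. ID proteins, textbook targets of BMP signalling, bind E proteins and keep them off DNA. ID1 was at 212, 210.1 and 216 CPM in vehicle-treated resistant cells (log2 fold change 0.53, SE 0.03), ID3 at 95.9, 100.3 and 93.9 CPM against 57.5, 53.2 and 52.6 CPM (0.83, SE 0.03), and ID2 at 8.13, 8.28 and 8.95 CPM against 2.27, 2.17 and 2.73 CPM (1.84, SE 0.09). HES1 was at 32.7 ± 5.28 against 19.4 ± 0.638 CPM (SD, n = 3 each; 0.75, SE 0.09). No resistant library overlapped a parental one for these genes, but this was common. Of all 14582 tested genes, 5790 were higher and 5531 lower without overlap.

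Stress genes, and single members of the decay, phosphatase and IER groups, held some of the largest decreases. GADD45B, a stress sensor that activates p38 and JNK through MTK1, was at 57.8, 56.2 and 59.9 CPM against 163, 155 and 155 CPM in parental cells (log2 fold change -1.44, SE 0.03, adjusted p = 1.27e-15). RHOB was at -1.10 (SE 0.03), GADD45A at -0.59 (SE 0.04), ZFP36L1 at -0.80 (SE 0.03), DUSP2 at -0.89 (SE 0.06) and SERTAD1 at -0.73 (SE 0.05). SGK1, a kinase induced by serum and glucocorticoids, was at 384 ± 15.8 in parental and 368 ± 17.1 CPM in resistant cells (SD, n = 3 each; -0.06, adjusted p = 0.121). Without the libraries rich in nuclear RNA it was lower in resistant cells (-0.10, SE 0.03, adjusted p = 0.00596).

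The matricellular genes parted company. CTGF was at 6.30, 5.63 and 7.67 CPM in vehicle-treated resistant cells, above every parental library, and its log2 fold change of 3.14 (SE 0.13, adjusted p = 4.78e-12) was the largest of the 45. CYR61, which shares its domains and many of its inducers, was lower at 59.1, 59.6 and 65.3 CPM against 114, 109.9 and 109 CPM (-0.86, SE 0.04, adjusted p = 1.47e-11). Despite its decrease, CYR61 stayed the more abundant: per kb it was at 26.8 and CTGF at 2.79 CPM per kb in these cells. BTG1 and DUSP4 parted from their families in the same way. BTG1 was at 133, 139 and 146 CPM against 47.5, 50.1 and 53.3 CPM (1.47, SE 0.05), whereas BTG2 was at -0.09, a sign that turned with library size alone (0.13). DUSP4 was at 4.17, 4.45 and 4.64 CPM against 1.44, 1.21 and 1.29 CPM (1.75, SE 0.11), whereas DUSP1, DUSP2, DUSP5 and DUSP8 were all lower.

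EGR1 was higher in resistant cells at 448, 448 and 480.1 CPM (log2 fold change 0.58, SE 0.03, adjusted p = 1.06e-10), as was EGR2 at 1.05 ± 0.122 CPM (SD, n = 3; 1.31, SE 0.17). EGR3 and NR4A1 did not pass (-0.17, adjusted p = 0.362, and -0.08, adjusted p = 0.714), but without the pair of libraries rich in nuclear RNA both were lower, at -0.36 (SE 0.13, adjusted p = 0.0183) and -0.52 (SE 0.08, adjusted p = 1.19e-05). Among AP-1 subunits, JUN and FOSL1 were lower (-0.34 and -0.58) and JUNB and FOSL2 higher (0.26 and 0.18). JUND was at -0.16, and 0.05 with library size alone. FOSB was higher by 1.22 (SE 0.33, adjusted p = 0.00349), which became 0.53 (SE 0.11, adjusted p = 0.000217) without that pair. IER3, a survival protein of the stress response, was higher (0.45), IER5 and IER5L were lower (-0.58 each), and IER2 did not pass.

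**Figure D4:**
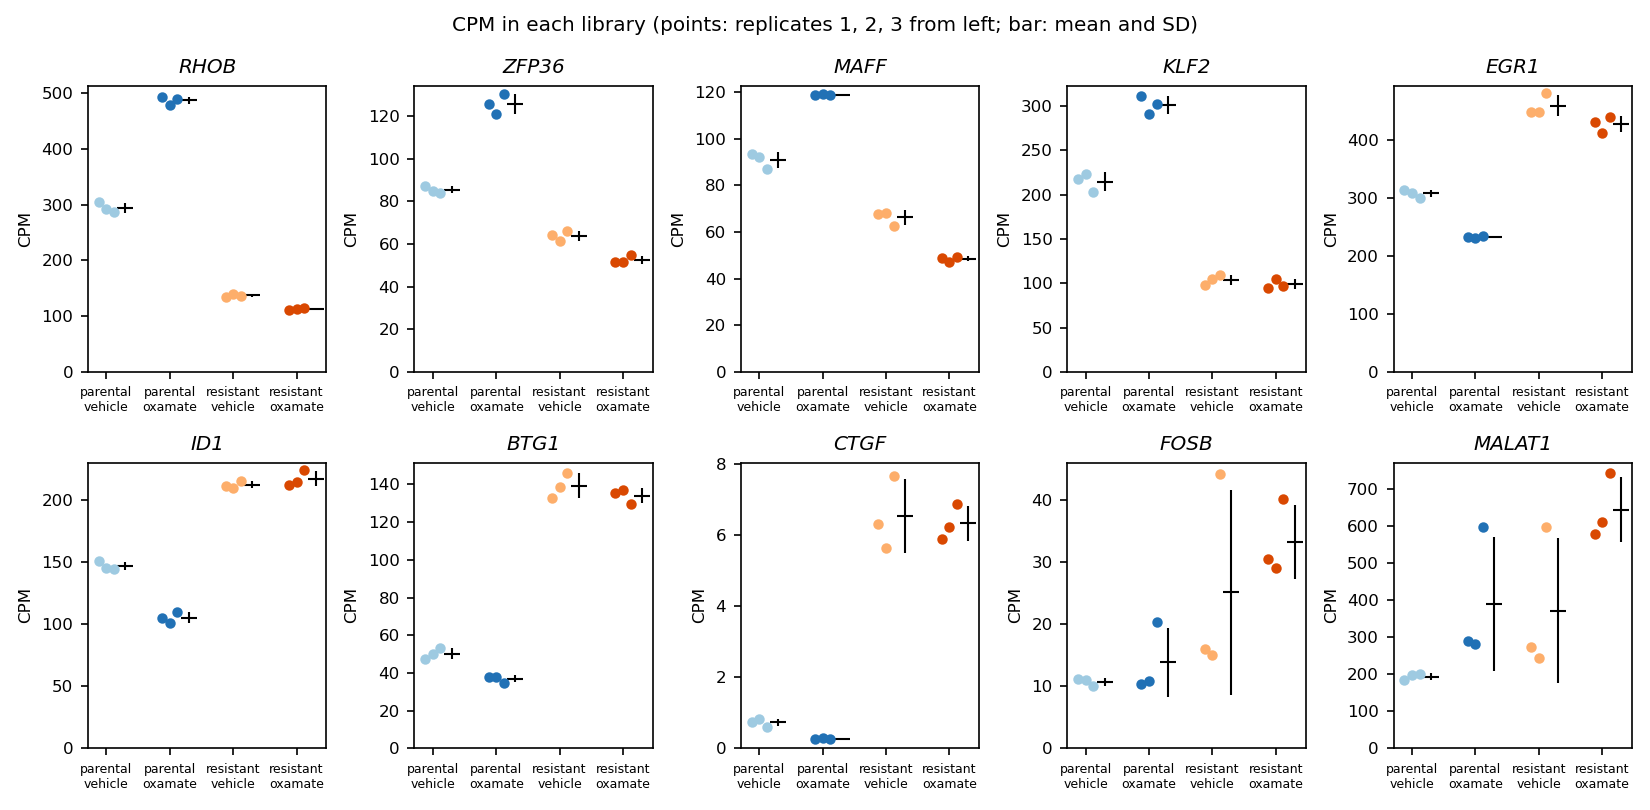
CPM of 9 members and of MALAT1 in each of the 12 libraries (points, replicates 1 to 3 from left), with the mean and SD of each group beside them and axes that start at 0. RHOB, ZFP36, MAFF and KLF2 are highest in oxamate-treated parental cells, EGR1, ID1, BTG1 and CTGF are higher in both resistant groups, and FOSB has its highest value, 44.3 CPM, in the vehicle-treated resistant library with the most MALAT1 of its group.

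The fourth comparison set the lines against each other under oxamate. The gap was wider: 29 members were lower and 14 higher in resistant cells, against 39.7% and 40.6% of all tested genes, and the median log2 fold change was -0.57 against 0.01. Past a fold of 1.5, 22 were lower (11.4% of all genes) and 11 higher (22.7%), and with library size alone, which raised the median of all genes to 0.34, these became 17 and 14. This comparison shares its treated libraries with both oxamate comparisons. RHOB was lowest of all members at -2.11 (SE 0.03, adjusted p = 6.42e-18), with 112, 113 and 114 CPM in resistant against 493, 480 and 490 CPM in parental cells. GADD45B was at -1.90 (SE 0.03), KLF2 at -1.61 (SE 0.05), MAFF and DUSP2 at -1.29 and -1.30, MAFK at -1.26, ZFP36 at -1.25 and SERTAD1 at -1.24.

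Members that passed 1.5-fold under oxamate but not under vehicle numbered 10 on the lower side (6.38% of all genes) and 3 on the higher side (8.73%). The 10 were FOSL1, MAFF, MAFK, NR4A1, KLF10, DUSP1, DUSP5, DUSP8, ZFP36 and IER5L, and the 3 were EGR1, EGR3 and ID1. FOSL1, a FOS-related AP-1 subunit, was at -1.10 (SE 0.03), DUSP1 at -0.91, DUSP8 at -0.96, IER5L at -1.05, KLF10 at -1.06 and KLF11 at -1.17. ZFP36L1 and CYR61 were at -1.12 and -1.14, KLF6 at -1.05, KLF4 at -0.88 and GADD45A at -0.87. EGR3, at 4.69, 4.16 and 5.59 CPM in resistant against 1.99, 1.45 and 2.61 CPM in parental cells, was higher by 1.24 (SE 0.18, adjusted p = 1.2e-05). CTGF was at 5.88, 6.23 and 6.86 CPM, higher by 4.54 (SE 0.17, adjusted p = 6e-13) than its reduced level in parental cells, BTG1 by 1.86, DUSP4 by 2.12, EGR2 by 2.25, ID2 by 1.40, HES1 by 1.36, ID1 by 1.04, EGR1 by 0.88 and ID3 by 0.70.

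Across both conditions, whose line comparisons share no library, 25 members were lower in resistant cells under vehicle and under oxamate, as were 32.2% of all tested genes, and 12 were higher in both, as were 32.0%. Past 1.5-fold, 12 were lower in both (4.97% of all genes) and 8 were higher in both (14.0%). The 12 were KLF2, KLF4, KLF5, KLF6, KLF11, DUSP2, ZFP36L1, CYR61, SERTAD1, GADD45A, GADD45B and RHOB, and the 8 were FOSB, EGR2, ID2, ID3, HES1, DUSP4, BTG1 and CTGF. Under vehicle FOSB was below that fold without the libraries rich in nuclear RNA (0.53). JUNB alone passed in opposite directions, higher under vehicle (0.26) and lower under oxamate (-0.10), and the latter turned to 0.22 with library size alone. FOS, JUN and BTG2 also changed sign under oxamate with library size alone.

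**Figure D5:**
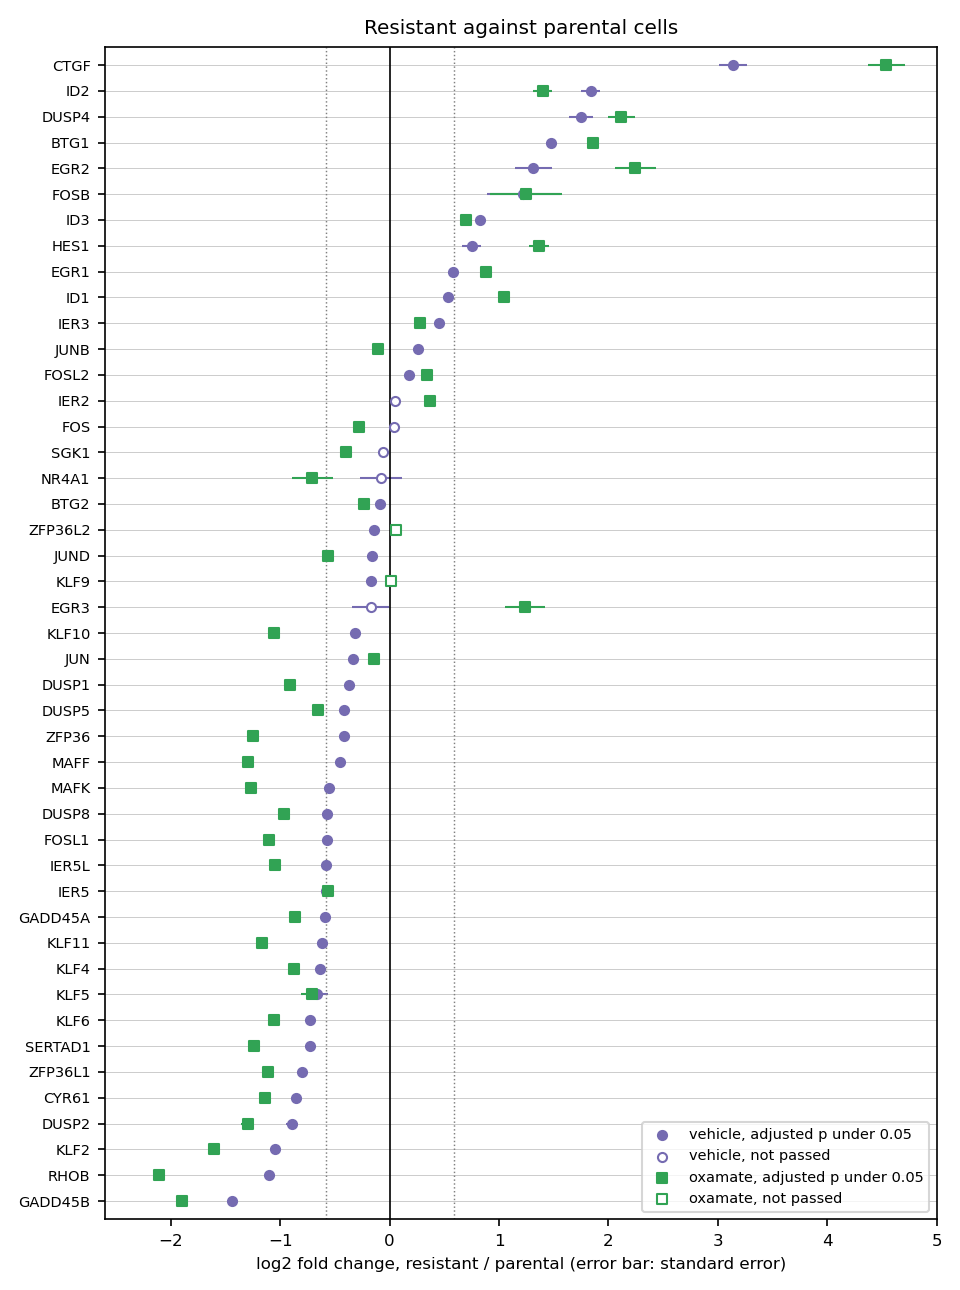
Log2 fold change of each member between resistant and parental cells under vehicle (purple circles) and under oxamate (green squares), with standard errors, filled where the adjusted p was under 0.05, and dotted lines at a fold of 1.5. Green squares lie further from 0 than purple circles for most members, from RHOB at -2.11 to CTGF at 4.54.

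The responses were also counted by sequence feature. Among the 12 with TTATTTATT in the 3′ untranslated region, 6 rose and 3 fell in parental cells on oxamate and 7 fell in resistant cells, and among the other 33 the numbers were 18, 10 and 16. Over all 1108 tested genes with the nonamer, 21.8% rose and 39.3% fell in parental cells, and over all 1108 such genes 7.94% rose and 14.6% fell in resistant cells. Of the 927 tested genes of at most 2 exons, 19.2% rose and 43% fell in parental cells. All 4 members with TGACGTCA in the promoter (DUSP1, DUSP8, JUND and MAFF) rose in parental cells, whereas over the 336 tested genes with it 23.2% rose and 40.8% fell. CTGF, with 3 GGAATG copies, had the largest fold change of the members in parental cells on oxamate and in both comparisons between the lines, but did not pass on oxamate in resistant cells (-0.04, adjusted p = 0.794), and EGR2, ID1 and ZFP36, which also hold the motif, moved in different directions.

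Genes that share inputs with the members were followed as lists, each described by its counts beside those of all genes given above. Of 34 further immediate early genes, 31 were tested. In parental cells on oxamate 13 rose and 8 fell (median log2 fold change 0.07), and in resistant cells 0 rose and 16 fell (median -0.14), with 1 higher at an unadjusted p under 0.05. The difference between the responses passed as negative for 16 and positive for 4. SIK1, a CREB-induced kinase that restrains CREB, had the smallest p of the list and moved like RHOB: it was at 149.6 ± 0.497 and 187 ± 3.93 CPM in parental and at 89.9 ± 2.21 and 60.8 ± 1.14 CPM in resistant cells (SD, n = 3 each), a difference between responses of -0.89 (SE 0.04, adjusted p = 1.63e-10). SIK1 has a near-identical copy in the genome, so its share of reads is uncertain.

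ERK output and feedback genes, of which 14 were tested, mostly fell in parental cells on oxamate (12 fell, 1 rose, median -0.32), and in resistant cells 6 fell and 1 rose. Between lines under vehicle 9 were higher and 5 lower in resistant cells (median 0.22). DUSP6, the cytoplasmic ERK phosphatase, had the smallest p: it was at 1.62 ± 0.264 and 0.751 ± 0.0696 CPM in parental and 21.7 ± 1.08 and 20.9 ± 0.722 CPM in resistant cells without and with oxamate (SD, n = 3 each), higher in resistant cells by 3.77 under vehicle (SE 0.08, adjusted p = 2.06e-15). It thus lay on the side of DUSP4 and not of the other DUSP members. Of 10 tested YAP and TEAD targets outside the members, 6 were higher and 4 lower in vehicle-treated resistant cells (median 0.77). TGFB2, with the smallest p under vehicle, was near the floor in parental cells at 0.0566 to 0.0804 CPM and at 4.40 to 4.69 CPM in resistant cells. AMOTL1, with the smallest p of the list in any comparison, was higher in resistant cells under vehicle (1.17, SE 0.04) and under oxamate (1.54, SE 0.05, adjusted p = 6.34e-14), the direction of CTGF rather than CYR61. Of 12 tested cytoskeletal targets of SRF and MRTF, 9 were lower and 1 higher (median -0.33), led by FHL2 at 150.5 ± 1.65 and 59.0 ± 0.592 CPM (SD, n = 3 each; -1.35, SE 0.03, adjusted p = 1.7e-15).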

How the data were processed

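RNA from the 12 MIAPaCa2 libraries was enriched for poly(A) RNA, and the authors aligned the reads with Bowtie2 (version 2.1.0) and estimated expression with RSEM (version 1.2.15) on hg38, as the submitters' processing notes name them. The authors deposited expected counts for 26475 symbols, without normalization, and 11.6% of the values are not whole, because RSEM divides reads that match several transcripts. The methods also describe STAR with featureCounts for RNA-seq, but these values are those of RSEM. How the counting used strand is not given in the sources used here.

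Rounded counts were fitted with edgeR 4.0.16 under R 4.3.3 (filterByExpr, TMM, glmQLFit, glmQLFTest) on all 12 samples with 1 mean per group. Adjusted p-values are Benjamini-Hochberg values over 14582 genes. A member rose or fell at an adjusted p under 0.05, and a fold over 1.5 was asked for as well where stated. SE is the absolute log2 fold change divided by the square root of F. DESeq2 1.42.0, limma-voom (limma 3.58.1), other scalings, filters and fits, and each replicate left out were the alternatives. A fit without either library rich in nuclear-retained RNA was chosen later, with the data in view. Each test was first checked on simulated counts in which 200 genes were changed.

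The members and lists were chosen with earlier results of these data known. In each comparison the members past adjusted p and fold with replicates apart were named, up to 25 by p, with the most abundant of each role. Of each outside list the gene with the smallest p was named, except 1 that is not reported here, and MALAT1 and NEAT1 were named for library quality. Members outside that rule are named because all 45 are accounted for, and TGFB2 was named after its values were seen. No pairing of same-numbered replicates was seen, as their deviations correlated between -0.074 and 0.0943, but the labels do not say what the numbers stand for.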

Additional observations from a re-analysis of the deposited data

Results flagged for a closer look

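The oxamate response differed between the lines, by the test of the difference itself and by more than 1.5-fold, for 9 members. Relative to parental cells, the response of resistant cells was lower for RHOB (-1.01 on the log2 scale), MAFF (-0.84), ZFP36 (-0.83), KLF10 (-0.75) and MAFK (-0.71), each of which rose in parental and fell in resistant cells. It was higher for EGR3 (1.41), CTGF (1.40), EGR2 (0.93) and HES1 (0.61). With all libraries, each of these fell in parental cells and did not pass in resistant cells. Without the libraries rich in nuclear RNA, EGR3 and HES1 rose in resistant cells (0.66 and 0.16, adjusted p = 0.00131 and 0.00517). EGR2 did not pass in parental cells in that fit (adjusted p = 0.0789). The MAFK fall in resistant cells was lost when certain single replicates were left out. EGR2, EGR3 and CTGF were below 8 CPM in every library. Among all tested genes, 4.99% were higher and 2.53% lower by the same rule.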

How the results depend on the processing

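At a fold over 1.5 and an adjusted p under 0.05, the members called numbered 6 for oxamate in parental cells, 0 in resistant cells, 20 and 33 between the lines under vehicle and oxamate, and 9 for the difference between the responses. With each replicate left out in turn these ranged from 5 to 7, 0 to 2, 20 to 25, 33 to 34 and 8 to 10. The 2 in resistant cells appeared without the third vehicle-treated replicate, and again 2 without both libraries rich in nuclear RNA. With no fold asked for, the counts were 37, 23, 40, 43 and 40. Direction turned for KLF6 in parental cells with library size alone (-0.0233), for SGK1 between vehicle-treated lines with upper-quartile factors (0.0169) and library size alone (0.16), and for JUN between oxamate-treated lines with library size alone (0.18). JUN had passed, and KLF6 and SGK1 had not. Among all 45 members, 4 that passed in each comparison of the lines turned with library size alone: JUND, KLF9, ZFP36L2 and BTG2 under vehicle, and FOS, JUN, JUNB and BTG2 under oxamate. Of the remaining values of the named members, 1741 kept direction and side of the threshold, 17 lost the call and 11 gained it. With the replicate number as a block the counts were 6, 0, 20, 33 and 10, KLF6 passed in parental cells (0.05, adjusted p = 0.0346), and the call of no other named member changed. Same-numbered deviations correlated between -0.074 and 0.0943 and differently numbered ones between -0.146 and 0.0947. Such values from few libraries cannot show whether the numbers share a design. EGR2 had the lowest mean level of the members, at 0.246 to 1.37 CPM, and so the fewest counts behind its values.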

Other observations

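Genes that set transcription and decay of such mRNAs were followed as lists too. Of 11 genes of P-TEFb, the kinase that releases paused RNA polymerase, and its control, 6 fell and 1 rose in parental cells on oxamate, and 9 were higher and 2 lower in resistant than in parental cells under oxamate (median log2 fold change 0.72). HEXIM1, the inhibitor of P-TEFb, was at 121 ± 4.87 and 81.5 ± 3.29 CPM in parental and 168.5 ± 0.976 and 172 ± 3.16 CPM in resistant cells without and with oxamate (SD, n = 3 each), a difference between responses of 0.60 (SE 0.05, adjusted p = 7.56e-08). Of 34 genes of AU-rich mRNA decay, 20 fell and 7 rose in parental cells on oxamate, with a median of -0.11. CNOT2, a deadenylase subunit, was higher in oxamate-treated resistant cells by 0.95 (SE 0.04, adjusted p = 5.19e-13). The decay list as a whole did not shift in that comparison, with 16 of the 34 higher and 15 lower (median 0.01). Of all tested genes, 40.6% were higher and 39.7% lower there.

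Of 7 tested TGF-beta and BMP targets, 6 were higher in oxamate-treated resistant than parental cells. Of 16 kinases and factors upstream of immediate early genes, 11 fell and 3 rose in parental cells on oxamate. ELK1, the SRF partner, rose there (0.27, SE 0.03) and was lower in oxamate-treated resistant cells (-0.80, SE 0.03), where 10 of the 16 were higher and 6 lower. ATF7, among 12 tested AP-1 partners, was lower by -1.16 (SE 0.04) in the same comparison, in which 6 of the 12 were lower and 6 higher. BBC3, among 10 p53 targets, was at -1.14 (SE 0.04), with 6 of the 10 higher and 3 lower. NEAT1, a nuclear-retained RNA, was at 128 to 156 CPM in vehicle-treated parental and 458.5 to 648.5 CPM in oxamate-treated resistant libraries.

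Of the marker lists, KRT8 was lower in vehicle-treated resistant cells (-1.11, SE 0.03), as were KRT18, KRT19 and VIM, COL3A1 was at -1.18 (SE 0.04), CD68 at -1.40 (SE 0.03) and CDH5, below 1 CPM on average in every group, at 0.97 (SE 0.19).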
